A study of Homo sapiens with 6 samples.

Results

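The genes described are 10 of the 58735 genes in the count table: 4 CDC42 effector proteins (CDC42EP1, CDC42EP3, CDC42EP4 and CDC42EP5), 5 p21-activated kinases (PAK1, PAK2, PAK3, PAK4 and PAK6) and CDC42BPA, which encodes the kinase MRCK alpha. They were chosen by name as direct effectors of CDC42, with no threshold on a measured value but with earlier results of these data known. CDC42EP2, PAK5, CDC42BPB and CDC42BPG, of the same families, are not among them. RNA was sequenced from the parent MDA-MB-231 cell line, a human triple-negative breast cancer line whose genotype is labelled WT, and from an Adriamycin-resistant line (ADRr, genotype labelled ADR resistant) derived from it, with 3 libraries each. The ADRr cells had been selected stepwise in Adriamycin (doxorubicin, an anthracycline) and then isolated as a single clone by limiting dilution, so a difference between the groups cannot be told apart from a property of that clone, and whether drug was present at harvest is not given in the sources used here. Both lines were grown in DMEM with serum. The comparison addresses how gene expression differs between resistant and parent cells, and it measures transcripts, not the protein, phosphorylation or GTP loading of any of these molecules.

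CDC42 is a small GTPase that switches between a GTP-bound form, which binds effectors, and a GDP-bound form, which does not. The CDC42EP proteins, also called Borg proteins, bind the GTP-bound form through a CRIB motif and bind septins, the filament-forming GTPases, through a conserved region of their own. PAK kinases carry the same kind of motif: group I (PAK1, PAK2, PAK3) are held inactive until CDC42 or RAC binds, group II (PAK4, PAK5, PAK6) bind CDC42 but are regulated in another way, and both groups phosphorylate LIM kinases, which act on the actin-severing protein cofilin, while MRCK alpha acts on myosin II.

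Of the 10 genes, 9 had enough counts to be tested, 6 were called higher in ADRr cells, 1 was called lower and 2 were not called. A call required edgeR's quasi-likelihood test to give an adjusted p of 0.05 or less, with Benjamini-Hochberg adjustment over all 15242 tested genes, and the gene to differ by 1.2-fold or more. In the same test 29.2% of all tested genes were called higher, 29.6% were called lower and 58.8% were called in either direction. The higher genes were the 4 CDC42EP genes, PAK2 and PAK6, and the lower gene was PAK4. CDC42EP5 had enough counts to be tested only because of its ADRr libraries, where it is higher. With a threshold of 1.2 on the log2 scale instead, CDC42EP3, CDC42EP5 and PAK6 kept their call (3 higher, 0 lower), and CDC42EP1, CDC42EP4, PAK2 and PAK4 lost it. The median log2 fold change was 0.76 over the 9 genes and -0.0061 over all tested genes, and the median absolute log2 fold change was 0.81 against 0.455.

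The libraries held 15983985 to 18272314 counts, with TMM factors (edgeR's scaling factors) of 0.987 to 1.011, and no library stood apart: the lowest correlation within a group was 0.9885 and the highest between groups was 0.9374. Leukocyte markers (6 of 6) and endothelial markers (3 of 3) stayed under 1 CPM (counts scaled to the library total) in every library, with sums of at most 0.438 and 1.05 CPM. The expected MDA-MB-231 markers summed to 4550 to 4730 CPM in parent and 4060 to 4090 CPM in ADRr libraries, with 1 of 6, SPARC, under 1 CPM. These sums hide opposite moves. From parent to ADRr cells, mean TMM-normalized counts fell from 17293 to 7010 for CAV1, 28752 to 18692 for AXL and 8812 to 5981 for VIM. They rose from 14644 to 25428 for CD44, and MSN, at 11181 and 12238, was not called. The luminal and receptor markers summed to 156 to 174 CPM in parent and 81.8 to 90.4 CPM in ADRr libraries. Of these, 2 of 5 were under 1 CPM in every library, with PGR at 0. From parent to ADRr cells, mean TMM-normalized counts went from 2059 to 870 for ERBB2, 525 to 450 for GATA3 and 252 to 121 for CDH1. Fibroblast markers summed to 30.5 to 33.5 and 19.9 to 23.7 CPM, with DCN at 0. In every library 2 of the 4 were under 1 CPM. Mean normalized counts of COL1A1 went from 480 to 312 and those of LUM from 78.2 to 49.0. In bulk RNA, fewer cells with a transcript and less of it per cell cannot be told apart. Nothing in the labels says that the 3 libraries of a group came from separate cultures, so p-values measure the spread between these libraries, which may be technical. The series record speaks of 3 time points that the labels do not assign to libraries; the libraries were treated as replicates, and had they been taken at different times, each SD and p-value would include that difference.

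The sequences just upstream of PAK2 and PAK4 are shown because these kinases, the most abundant PAK transcripts of parent cells, moved in opposite directions. The PAK2 window is the 250 bases before its RefSeq start at chr3:196739607-196739856 on the plus strand of GRCh38.p14, with no base in a GENCODE 29 exon. The PAK4 window is chr19:39125536-39125769 on the plus strand and stops 16 bases before the RefSeq start, where the first GENCODE 29 exon begins. Capitals mark every match to the motifs searched, on either strand.
PAK2: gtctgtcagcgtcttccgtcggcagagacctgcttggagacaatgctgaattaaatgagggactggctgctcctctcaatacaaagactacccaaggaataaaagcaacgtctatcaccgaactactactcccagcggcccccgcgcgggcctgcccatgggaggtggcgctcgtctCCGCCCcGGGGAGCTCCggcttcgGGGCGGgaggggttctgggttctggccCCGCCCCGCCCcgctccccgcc
PAK4: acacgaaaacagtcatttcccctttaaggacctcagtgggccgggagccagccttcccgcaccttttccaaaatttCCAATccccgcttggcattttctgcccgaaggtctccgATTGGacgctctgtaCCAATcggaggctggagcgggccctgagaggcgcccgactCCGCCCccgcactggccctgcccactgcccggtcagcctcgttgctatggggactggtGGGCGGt
The PAK2 window held 4 matches to the Sp1/KLF box GGGCGG and 1 match to the NF-kB consensus, and no CCAAT. The PAK4 window held 2 Sp1/KLF boxes and 3 CCAAT boxes, and its 1 match to the NF-kB consensus lay in the exon bases that are not printed. RefSeq lists a second PAK4 start, with a window at chr19:39167057-39167306 that is not printed and held 4 Sp1/KLF boxes, 0 CCAAT boxes and 0 NF-kB matches; 0 GENCODE 29 transcripts start within 50 bases of it, against 8 at the first. CCAAT was present in 32% of the 35116 RefSeq windows of this length and the Sp1/KLF box in 42.6%.

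The NF-kB consensus was found in 5 of 15 windows of these genes, in 5 of the 9 genes with a window, against 9.96% of all windows. Matches in 3 of these genes, CDC42EP3 and CDC42EP4 (called higher) and CDC42BPA (not called), are shown with the matched bases in capitals. In CDC42EP3 the same bases match on both strands. PAK4, which was called lower, also carried a match, which is not printed. The CDC42EP3 stretch is chr2:37672676-37672705, the CDC42EP4 stretch is chr17:73312013-73312042 and the CDC42BPA stretch is chr1:227318609-227318638, each read on the minus strand of GRCh38.p14. GENCODE 29 places all 30 bases of the CDC42EP4 stretch in an exon and 0 bases of the others. RefSeq lists several starts for CDC42EP3, and 0 GENCODE 29 transcripts start within 50 bases of the one whose window holds the match. Another CDC42EP3 window, at chr2:37672220-37672469, has 2 such transcripts and held 0 NF-kB matches.
CDC42EP3: gggctGGGACCTCCCagccggaaaacaccg
CDC42EP4: ggagtgtcctGGAGGCTCCCagccctgaaa
CDC42BPA: gcgcccccttGGGGGCCTCCgctgggcgcg
The STAT motif TTCNNNGAA, present in 6.57% of all windows, was in 0 of the 15, as were the AP-1 motif TGANTCA (6.57% of all) and the CRE TGACGTCA (1.65%). The TEAD motif CATTCC was in 1 of 15 windows and in 11.9% of all. The windows of these genes ranged from 34.8% to 84.0% GC, against a median of 58.0% for all windows. The 5 windows with an NF-kB match had 63.2% to 82.4% GC, all above that median. The part of base composition in these motif counts was not tested. A match describes letters in the window and not a site in use.

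CDC42EP3 had the largest change of the tested CDC42EP genes. This gene (ENSG00000163171, chr2:37641882-37738468, minus strand, GRCh38) encodes a septin-binding effector, also known as Borg2. Its TMM-normalized counts were 2546, 2667 and 2591 in parent replicates 1 to 3 and 9544, 9338 and 10072 in ADRr replicates 1 to 3. The parent libraries lay close together and every ADRr library was far above them. The mean rose from 2601 ± 61 (SD, n = 3) to 9652 ± 379 (SD, n = 3), a log2 fold change of 1.89 (SE 0.051; edgeR adjusted p = 8.01e-19), or 3.71-fold. Only 5.04% of all tested genes had an absolute log2 fold change as large as that or larger.

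CDC42EP1 (ENSG00000128283, chr22:37560447-37569405, plus strand), known as Borg5 or MSE55, was the most abundant tested CDC42EP transcript per gene length in both lines. Its normalized counts were 1636, 1430 and 1721 in parent and 2673, 2916 and 2820 in ADRr replicates 1 to 3. All ADRr libraries were above all parent libraries, with a log2 fold change of 0.81 (SE 0.064; edgeR adjusted p = 1.82e-10), from 1596 ± 150 to 2803 ± 122 (SD, n = 3).

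CDC42EP4 (ENSG00000179604, chr17:73283624-73312175, minus strand), known as Borg4, changed by a similar amount from a lower level. Its normalized counts were 936, 864 and 961 in parent and 1487, 1557 and 1422 in ADRr replicates 1 to 3, again without overlap. It rose by 0.69 on the log2 scale (SE 0.065; edgeR adjusted p = 3.32e-09), from 921 ± 50 to 1489 ± 67 (SD, n = 3). The 95% interval of CDC42EP4 overlapped that of CDC42EP1, and both lay below that of CDC42EP3.

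CDC42EP5 (ENSG00000167617, chr19:54465026-54473264, minus strand), known as Borg3, had the fewest counts of the 9 tested genes. It had 7, 8 and 12 raw counts in parent and 28, 31 and 24 in ADRr replicates 1 to 3. The groups did not overlap, and the log2 fold change was 1.54 (SE 0.38; edgeR adjusted p = 0.00121), with a 95% interval of 0.75 to 2.34. At this depth its size is known far less closely than that of CDC42EP3. CDC42EP5 passed the count filter only because of its ADRr libraries, so its place among the tested genes depended on the group where it is high. CDC42EP2, the remaining gene of the family and not among the 10, had 2, 3 and 5 counts in parent and 6, 2 and 3 in ADRr replicates and was not tested. In GENCODE 29, 84.8% of its exon bases also belong to AP000944.2 on the same strand, so its level was not measured reliably by these counts.

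**Figure D1:**
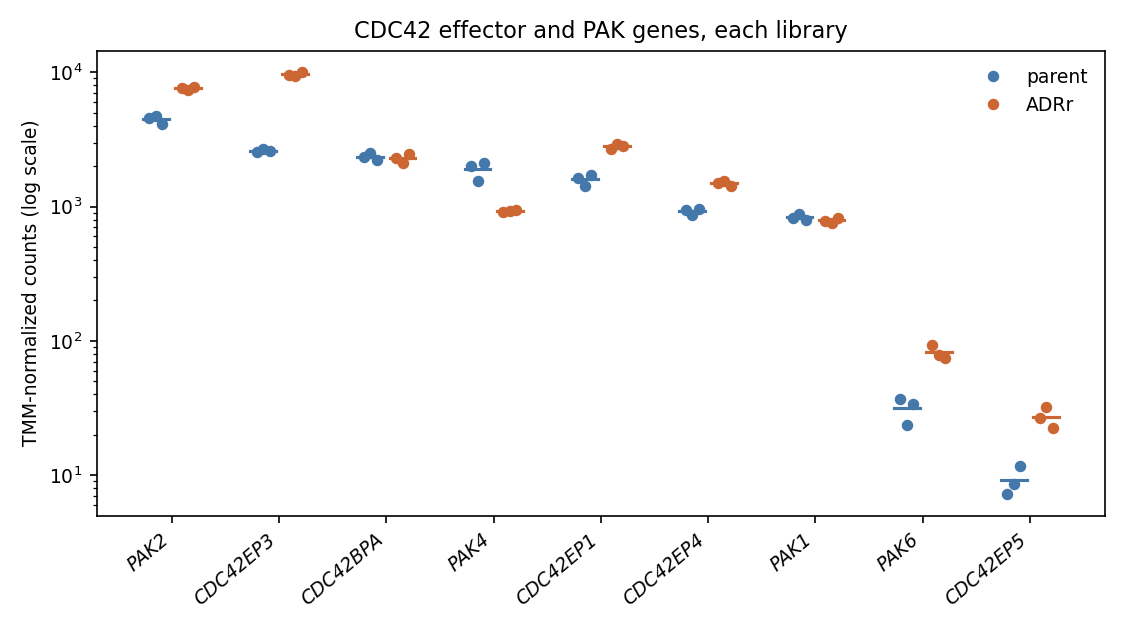
TMM-normalized counts (log scale) of the 9 tested genes in each of the 3 parent (blue) and 3 ADRr (orange) libraries, with horizontal lines at the group means and genes ordered from left to right by the level in parent cells. The 4 CDC42EP genes, PAK2 and PAK6 have every ADRr library above every parent library, PAK4 has the reverse, and PAK1 and CDC42BPA overlap.

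Among the group I kinases, PAK2 rose and PAK1 was not called. PAK2 (ENSG00000180370, chr3:196739857-196832647, plus strand), the broadly expressed member of the group that can also be activated by caspase cleavage, had normalized counts of 4572, 4731 and 4152 in parent and 7681, 7356 and 7793 in ADRr replicates 1 to 3. Every ADRr library was above every parent library. PAK2 rose by 0.76 on the log2 scale (SE 0.053; edgeR adjusted p = 1.78e-11), from 4485 ± 299 to 7610 ± 227 (SD, n = 3).

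PAK1 (ENSG00000149269, chr11:77321707-77474635, minus strand), a kinase of actin remodelling that lies in a region often amplified in breast cancer, had 819, 883 and 794 normalized counts in parent and 787, 756 and 828 in ADRr replicates 1 to 3. The groups overlapped. The log2 fold change was -0.07 (SE 0.072; edgeR adjusted p = 0.387), with a 95% interval of -0.22 to 0.08 that lay inside the fold change threshold in both directions. The interval of PAK1 and that of PAK2 did not overlap.

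PAK3 (ENSG00000077264, chrX:110944285-111227361, plus strand), known mainly from neurons, had 1 raw count in parent replicate 1 and 0 in the other 5 libraries, and was not tested. A count of 0 at these depths allows up to 3 counts, or 0.164 to 0.188 CPM, for counting error only.

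PAK4 was the 1 gene of the 10 that fell. PAK4 (ENSG00000130669, chr19:39125770-39182816, plus strand) is a group II kinase that acts downstream of CDC42 on filopodia and cell adhesion. Its normalized counts were 1997, 1558 and 2116 in parent and 907, 926 and 951 in ADRr replicates 1 to 3. Parent replicate 2 was the lowest parent library and was still above every ADRr library. PAK4 fell by 1.03 on the log2 scale (SE 0.084; edgeR adjusted p = 2.77e-10), from 1890 ± 294 to 928 ± 22 (SD, n = 3), which is 49.1% of the parent level.

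PAK6 (ENSG00000137843, chr15:40238759-40277487, plus strand), a group II kinase first described as a partner of the androgen receptor, moved the other way at a low level. It had 36, 22 and 35 raw counts in parent and 98, 75 and 80 in ADRr replicates 1 to 3, without overlap. Its rise was 1.37 on the log2 scale (SE 0.23; edgeR adjusted p = 2.04e-05), from 31.6 ± 6.95 to 82.2 ± 9.80 normalized counts (SD, n = 3). Of its exon bases, 39.5% also belong to the same-strand readthrough gene BUB1B-PAK6, which had 1 count in ADRr replicate 1 and 0 in the other libraries, so reads in the shared part may be missing from the PAK6 count. PAK5, the third gene of the group and not among the 10, had 0 counts in all 6 libraries.

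CDC42BPA (ENSG00000143776, chr1:226989865-227318474, minus strand), whose product MRCK alpha phosphorylates regulators of myosin II at the leading edge, was not called. Its normalized counts were 2349, 2495 and 2205 in parent and 2319, 2120 and 2465 in ADRr replicates 1 to 3, with overlapping groups. The log2 fold change was -0.03 (SE 0.062; edgeR adjusted p = 0.701), with a 95% interval of -0.16 to 0.10. Its sign turned when either replicate 2 was left out, to 0.01 without parent replicate 2 and 0.03 without ADRr replicate 2, and it was not called in either.

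**Figure D2:**
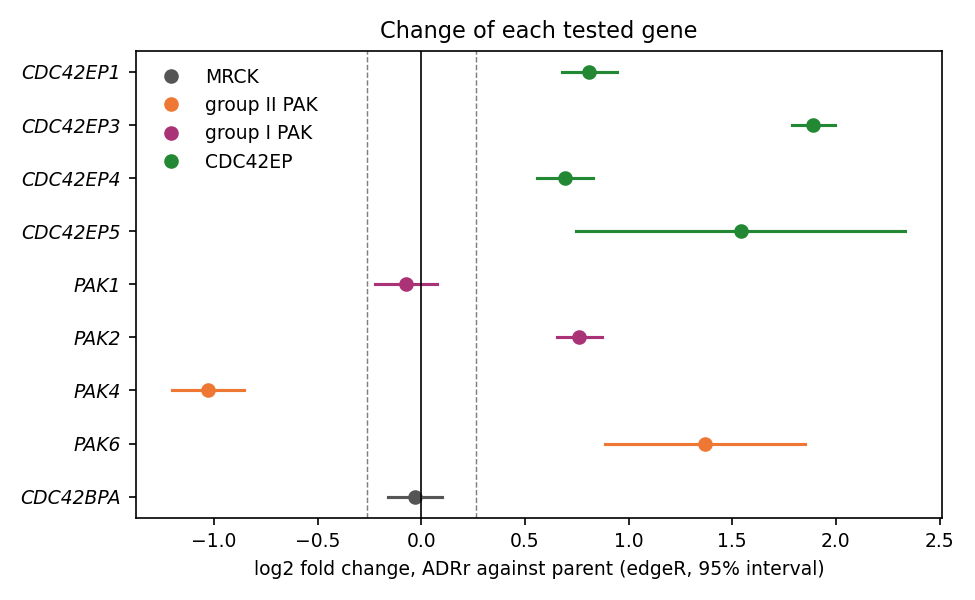
Log2 fold change of ADRr against parent cells (points) with its 95% interval from edgeR (bars) for the 9 tested genes, coloured by kind of effector, with dashed lines at the fold change threshold of 1.2 in each direction. The intervals of PAK1 and CDC42BPA lie between the dashed lines, that of PAK4 lies below them, and the other 6 lie above them, with the widest bars at the low-count genes CDC42EP5 and PAK6.

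The groups did not overlap in 7 of the 9 tested genes, with ADRr libraries above parent libraries in 6 and below them in 1. Over all tested genes, 34.5% had every ADRr library above every parent library, 34.7% had the reverse, and 69.2% had groups that did not overlap in either direction.

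Levels of different genes can be set side by side per gene length, as FPKM (fragments scaled to gene length and sequencing depth). In parent cells PAK2 had the highest FPKM of the 10, 40.9 ± 2.79 (SD, n = 3), and its libraries overlapped those of CDC42EP1, at 35.5 ± 3.31. PAK4 at 15.2 ± 2.36 FPKM overlapped CDC42EP3 at 14.3 ± 0.314, and CDC42EP4 at 10.5 ± 0.574 overlapped CDC42BPA at 9.56 ± 0.597. PAK1 followed at 7.55 ± 0.418 FPKM, and CDC42EP5 at 0.581 ± 0.143 and PAK6 at 0.280 ± 0.062 were far below. In ADRr cells the order differed in the place of PAK4. PAK2 (69.6 ± 2.27 FPKM), CDC42EP1 (62.5 ± 2.64), CDC42EP3 (53.2 ± 2.23) and CDC42EP4 (17.1 ± 0.724) followed each other without overlap between libraries. PAK4, at 7.48 ± 0.188 FPKM, lay below CDC42BPA (9.39 ± 0.732) and overlapped PAK1 (7.20 ± 0.353).

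The makeup of the PAK transcripts differed between the lines. PAK2 made up 63.6%, 67.5% and 60.7% of the summed PAK FPKM in parent replicates 1 to 3 and 82.1%, 81.7% and 81.8% in ADRr replicates 1 to 3. PAK4 made up 24.5%, 19.6% and 27.3% in parent and 8.54%, 9.07% and 8.79% in ADRr replicates. The PAK2 share was higher and the PAK4 share lower in every ADRr library than in any parent library, and the PAK1 share went from 11.8% ± 0.639 to 8.46% ± 0.167 (SD, n = 3) with its own level not called. The summed PAK level was 63.9 ± 1.76 FPKM in parent and 85.0 ± 2.70 FPKM in ADRr cells. The ratio of PAK2 to PAK4 was 2.60, 3.45 and 2.23 in parent and 9.61, 9.01 and 9.30 in ADRr replicates 1 to 3 (exact permutation test, two-sided, p = 0.1, the smallest p that 3 against 3 libraries can give). The ratio of PAK4 to PAK1 was 2.03 ± 0.415 in parent and 1.04 ± 0.0388 in ADRr cells (SD, n = 3; exact permutation p = 0.1).

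Among the tested CDC42EP genes the gain was uneven. CDC42EP3 made up 22.7%, 25.8% and 22.2% of the summed CDC42EP FPKM in parent replicates 1 to 3 and 40.2%, 37.8% and 40.8% in ADRr replicates 1 to 3. CDC42EP1 went from 58.2% ± 2.00 to 46.5% ± 1.10 and CDC42EP4 from 17.3% ± 0.16 to 12.7% ± 0.623 (SD, n = 3), although both transcripts rose. The sum over the tested CDC42EP genes, without CDC42EP2, was 60.8 ± 3.69 FPKM in parent and 134.5 ± 3.04 FPKM in ADRr cells. The ratio of CDC42EP3 to CDC42EP1 was 0.385, 0.461 and 0.372 in parent and 0.883, 0.792 and 0.883 in ADRr replicates 1 to 3 (exact permutation p = 0.1).

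**Figure D3:**
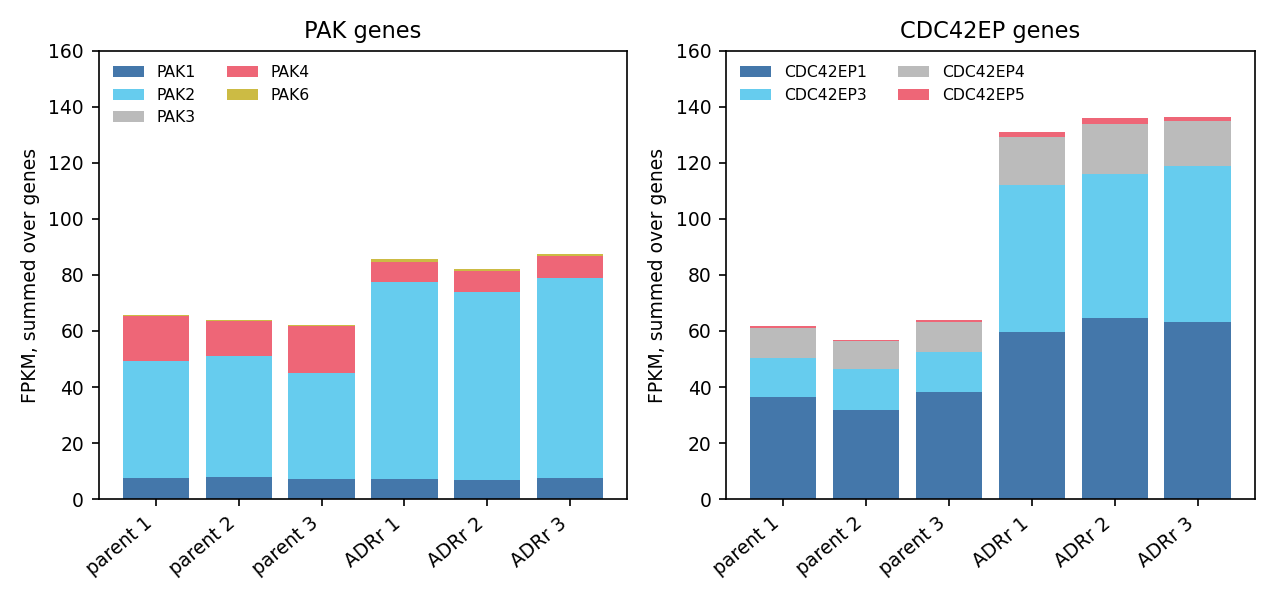
FPKM in each library, stacked by gene, for the 5 PAK genes (left) and the 4 CDC42EP genes (right), on axes that start at 0. The PAK2 part grows and the PAK4 part shrinks from the parent to the ADRr libraries, and the CDC42EP3 part gains most in share among the CDC42EP genes, whose sum goes from 60.8 to 134.5 FPKM.

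Genes next to each other on a chromosome can move together, so each of the 9 genes was set beside its 20 nearest tested genes. CDC42EP3, on the short arm of chromosome 2, lay among raised neighbours: their median log2 fold change was 0.57, 14 of 20 were called higher and 2 lower, and with 25 genes on each side the median was 0.62, with 35 higher and 3 lower. Its own log2 fold change of 1.89 was exceeded by 3 of the 20. The part of this surrounding shift in the CDC42EP3 result was not tested. CDC42EP4 had a neighbour median of 0.38 (11 higher, 4 lower), which was 0.08 with 25 genes on each side. The median was 0.0058 around PAK2, with 3 of 20 neighbours above PAK2, and -0.07 around PAK4, with 19 of 20 above PAK4 and 1 below it. Around CDC42EP1 it was 0.05, with 3 of 20 above the gene, around CDC42EP5 0.14, with 1 of 20 above, and around PAK6 -0.21, with 1 of 20 above. PAK1 had a neighbour median of 0.02 and CDC42BPA one of 0.14. Each gene's value lay within the range of its neighbours, and no difference from them was tested.

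**Figure D4:**
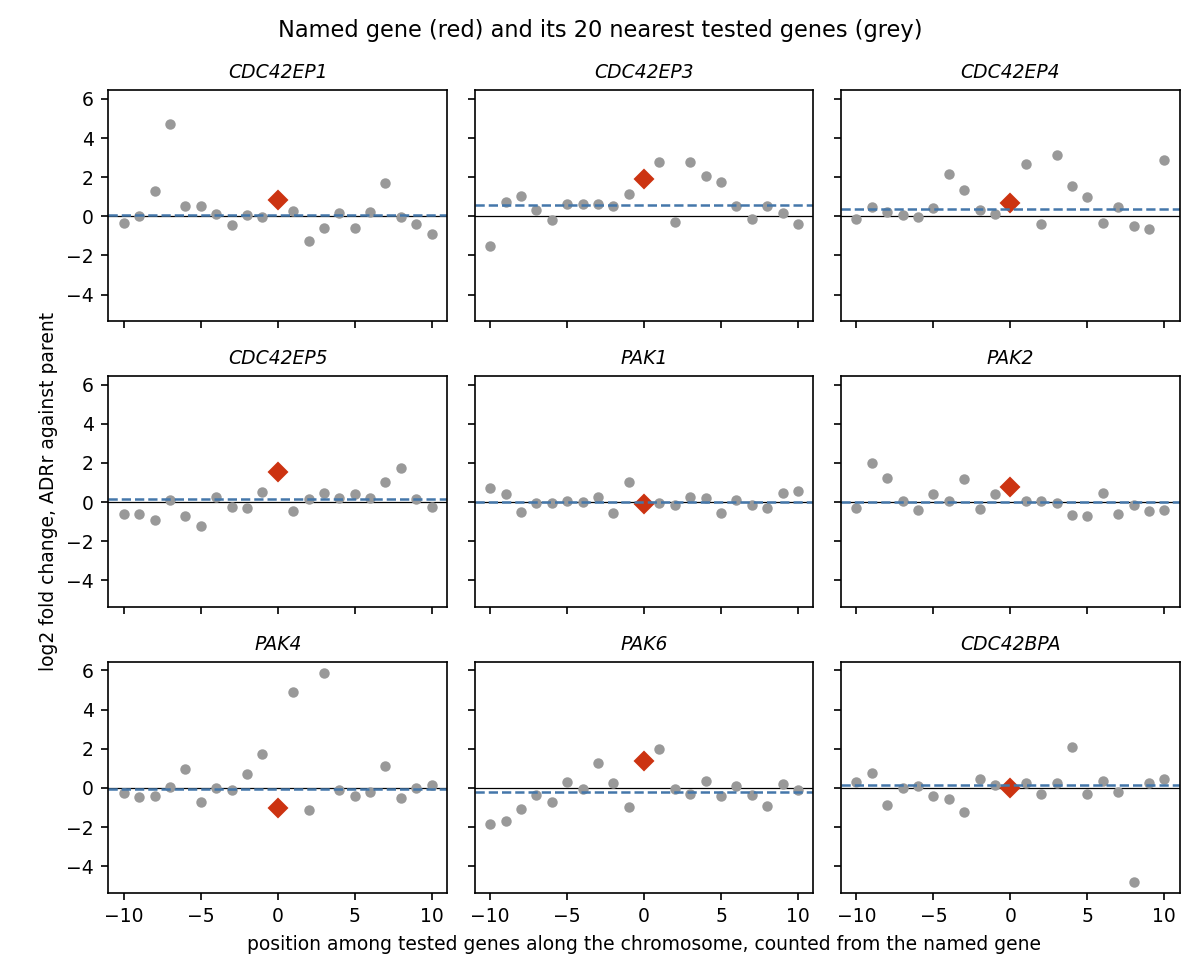
Log2 fold change of ADRr against parent cells for each of the 9 tested genes (red diamond) and its 10 nearest tested genes on each side along the chromosome (grey points), with the neighbours' median as a blue dashed line. The median is 0.57 around CDC42EP3 and 0.38 around CDC42EP4, and it lies between -0.21 and 0.14 around the other 7 genes.

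The GTPase itself could not be followed reliably. CDC42 had 10, 8 and 3 counts in parent and 11, 15 and 17 in ADRr replicates 1 to 3 (log2 fold change 0.94, SE 0.49; edgeR adjusted p = 0.0922), and in GENCODE 29 57.1% of its exon bases also belong to the same-strand gene AL031281.2, which had 0 to 3 counts. Of the 8 GTPases listed, CDC42 included, 6 were tested, 3 were called higher and 0 lower, against 29.2% and 29.6% of all tested genes. Their median log2 fold change of 0.66 includes the poorly measured value of CDC42 itself. Of the 6 tested, 0 were lower with edgeR at an unadjusted p under 0.05, and DESeq2 also called 0 lower. Leaving out parent replicate 2 gave 1 called lower. RHOQ (TC10), which binds the CDC42EP proteins too, rose by 1.09 on the log2 scale (SE 0.093; edgeR adjusted p = 6.09e-10), beside chromosome 2 neighbours with a median of 1.12, and RHOU, an atypical relative that binds PAK kinases, rose by 0.77 (SE 0.14; adjusted p = 2.96e-05).

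Exchange factors load CDC42 with GTP, and 6 of the 13 tested were called higher and 4 lower (median log2 fold change 0.35), against 29.2% and 29.6% of all tested genes. DOCK9 (zizimin 1), a CDC42-specific exchange factor, had normalized counts of 2761, 2959 and 2640 in parent and 15663, 15225 and 15400 in ADRr replicates 1 to 3. It rose 5.54-fold, by 2.47 on the log2 scale (SE 0.052; edgeR adjusted p = 1.46e-20), among neighbours with a median of 0.37. ITSN2, an endocytic scaffold with exchange activity for CDC42, rose by 1.28 on the log2 scale, among chromosome 2 neighbours with a median of 0.76. FGD4 (frabin) fell by 0.57 on the same scale. Among the listed GTPase-activating and dissociation-inhibiting proteins, which oppose CDC42 or related GTPases, 4 of 11 were called higher and 3 lower (median 0.12). This was again close to the shares of all tested genes (29.2% and 29.6%). ARHGAP10 (0.53) and ARHGAP21 (0.43) rose, and ARHGAP31 (-0.45) and SRGAP2 (-0.40, a gene with near-identical copies) fell.

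Of the other effectors of CDC42, 8 of 22 were called higher and 5 lower (median log2 fold change 0.11), and calls in either direction were about as common as over all tested genes (58.8%; 29.2% higher and 29.6% lower). FMNL2 (1.02), a formin, and BAIAP2 (0.83), the membrane-bending adaptor IRSp53, rose. CDC42BPG, which encodes MRCK gamma, fell by 2.74 on the log2 scale, from 150 ± 20.7 to 22.5 ± 6.82 normalized counts (SD, n = 3), and PARD6B, a polarity adaptor, fell by 1.15. Between MRCK alpha and MRCK gamma the 95% intervals did not overlap (-0.16 to 0.10 against -3.20 to -2.28). CDC42BPB, which encodes MRCK beta and is named after its values were seen, had 2788 ± 84.7 normalized counts in parent and 3055 ± 135 in ADRr cells (SD, n = 3) and was not called, its log2 fold change of 0.13 (SE 0.054; edgeR adjusted p = 0.0345) being below the fold threshold.

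PAK partners, inhibitors and substrates numbered 22 tested genes, with 5 called higher and 9 lower (median log2 fold change -0.14), against the same 29.2% and 29.6%. NCK1 (0.51) and NCK2 (0.45), adaptors that bring PAK to the membrane, rose. CTNNB1 (-1.01), which encodes beta-catenin and is listed as a PAK substrate, fell among chromosome 3 neighbours with a median of -0.56. The LIM kinases, named here after their values were seen, were LIMK1 at -0.76 and LIMK2 at -0.55, both called lower.

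Septins, the partners of the CDC42EP proteins, were called lower in 6 of 10 tested genes and higher in 0 (median log2 fold change -0.39), against 29.6% and 29.2% of all tested genes. With edgeR 0 septins were higher at an unadjusted p under 0.05, and DESeq2 called 0 higher. SEPTIN9 had normalized counts of 6324, 5825 and 6429 in parent and 3149, 3428 and 3314 in ADRr replicates 1 to 3, a log2 fold change of -0.91 (SE 0.053; edgeR adjusted p = 8.71e-13). SEPTIN11 fell by 0.69 on the log2 scale. At the threshold of 1.2 on the log2 scale 0 septins were called lower, and limma-trend on FPKM with no filter called 4 lower. In the edgeR test with the 1.2-fold threshold every tested CDC42EP gene was called higher and no tested septin was. Among the CDC42EP genes, CDC42EP5 was tested only because of its ADRr counts. At 1.2 on the log2 scale CDC42EP1 and CDC42EP4 were no longer called. Myosin II genes and their kinases and phosphatase were called higher in 3 of 12 and lower in 6 (median -0.41), against 29.2% and 29.6%. MYH10, the heavy chain of non-muscle myosin IIB, fell by 3.20 on the log2 scale from 2945 ± 142 to 319 ± 19.0 normalized counts (SD, n = 3), and MYL9, a myosin light chain, fell by 1.41. ROCK2 (0.86) and PPP1CB (0.73), a kinase and a phosphatase subunit of the myosin light chain, rose, both on chromosome 2 among neighbours with medians of 0.56 and 0.29.

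**Figure D5:**
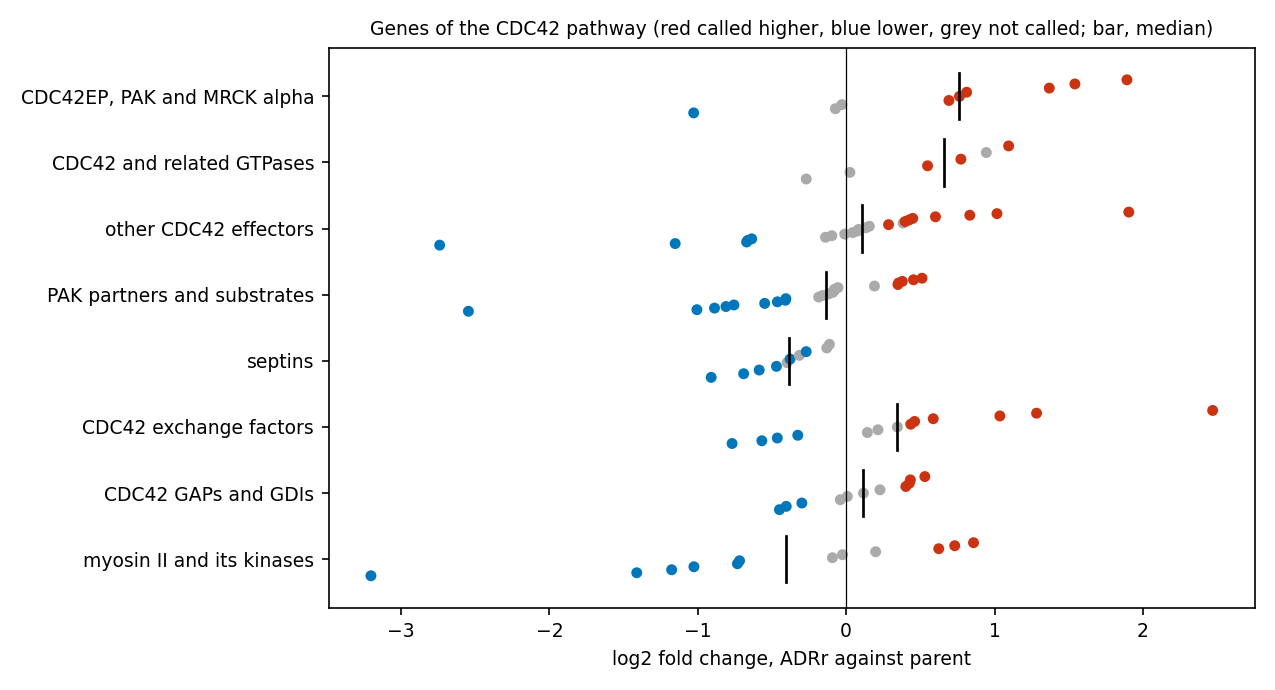
Log2 fold change of ADRr against parent cells for the tested genes of each list (1 point per gene, red called higher, blue called lower, grey not called), with a black bar at each list's median. The CDC42EP, PAK and MRCK alpha genes have a median of 0.76, and septins have a median of -0.39 with no gene called higher.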

How the data were processed

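RNA from parent and ADRr MDA-MB-231 cells (3 libraries each) was sequenced by the authors. Per the methods, polyadenylated RNA, the CORALL kit and paired-end NovaSeq reads were used; the sample records describe another kit. The submitters' processing notes name fastp, HISAT2 2.0.5, featureCounts 1.5.0-p3, DESeq2 1.20.0 and GRCh38; strandedness is not given in the sources used here. The authors deposited a table of raw counts per gene and a table of FPKM values. Identifiers are those of GENCODE 29. Reads that several genes share can be missing from the counts. The total count per library was 15983985 to 18272314, and a count of 0 allows up to 3 counts.

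In R 4.3.3, 15242 genes kept by filterByExpr were normalized with TMM and compared with edgeR 4.0.16 (quasi-likelihood test, no block), adjusted by Benjamini-Hochberg over all of them; 43493 genes were not tested. Calls needed an adjusted p not above 0.05 and a 1.2-fold difference or more. Normalized counts are scaled to the mean effective library size. Ratios and shares used FPKM. The tests were tested on simulated data. Windows of 250 bases before each start came from RefSeq (GRCh38.p14), in which 9 of the 10 genes matched; septins were matched by identifier, as their symbols were turned into dates.

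Named were all 10 genes, CDC42 and CDC42EP2, the markers, and in each list the 2 largest increases and decreases among called genes with at least 100 mean normalized counts in the higher group. A few of the genes so named are left out here. The genes and lists were chosen with earlier results of these data known. Alternatives were DESeq2 1.42.0, its size factors, library size alone, no filter on counts, a minimum of 10 counts in every library, limma 3.58.1 (limma-trend) on log2 FPKM with a pseudocount of 1 or 0.1 (mean FPKM of at least 0.5, or no filter), a replicate block, leaving out each library, calls by adjusted p alone, calls at 1.2 on the log2 scale, glmTreat, normalized counts per length and 25 neighbours on each side.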

Additional observations from a re-analysis of the deposited data

How the results depend on the processing

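CDC42EP3 and PAK6 kept their call and direction under every alternative, and CDC42EP1, CDC42EP4, PAK2 and PAK4 under all but the threshold on the log2 scale. CDC42EP5 kept its call wherever it was tested, but was not testable with at least 10 counts in every library, which left 5 genes higher. With an absolute log2 fold change of 1.2, 3 of the 9 genes were called higher (CDC42EP3, CDC42EP5, PAK6) and 0 lower, against 1114 and 972 of all tested genes. That threshold left 0 GTPases higher, other effectors at 1 and 1, PAK partners at 0 and 1, septins at 0 lower, exchange factors at 2 and 0, GTPase-activating proteins at 0 and 0, and myosin genes at 0 and 2 (higher and lower). Leaving out 1 library gave 4297 to 4483 genes higher, 4375 to 4610 lower, and 0 to 1 GTPases lower (1 without parent replicate 2). CDC42BPA ranged from -0.0817 to 0.0309, turning to 0.0104 without parent replicate 2 and 0.0309 without ADRr replicate 2, both not called. The log2 fold change of PAK6 ranged from 0.43 to 1.49 and that of CDC42EP5 from 0.78 to 1.76, lowest on FPKM with a pseudocount of 1, which shrinks low levels; that of CDC42EP3 ranged from 1.83 to 1.92 and that of PAK4 from -1.15 to -0.92. With up to 25 genes on each side the neighbour medians were 0.0845 for CDC42EP4, -0.0737 for CDC42EP5, 0.12 for PAK1, 0.0659 for PAK2 and 0.21 for CDC42BPA. For PAK2 only 43 such neighbours lay on its chromosome. The replicate numbers did not pair the libraries (correlations of deviations 0.0074, -0.021 and -0.046; 0 parent libraries were closest to their own number), and with the replicate block 6 genes were called higher and 1 lower, among 4406 and 4464 of all genes, with no call of the 9 genes changed. Depth limits CDC42EP5, PAK6 and PAK3.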
